A study of Mus musculus with 12 samples.

Results

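The genes of the major histocompatibility complex (MHC, called H2 in the mouse) and of antigen presentation were followed in liver RNA sequencing of mice. The set held every gene whose symbol starts with H2- and, in addition, B2m, Cd74, Ciita, Nlrc5, Tap2 and Tapbp, whatever their values. That gave 36 of the 25164 genes listed, 25 of class I and 11 of class II, and 32 of the 36 lie on chromosome 17. Annotated as pseudogenes were 6 of the 36: H2-Bl, H2-K2, H2-M6-ps, H2-Q5, H2-T-ps and H2-T10. They are included in the class I counts and medians wherever they had enough reads to be tested. The Control group ate a normal diet for 14 weeks. The HFD group ate a high-fat diet for 14 weeks. The fenofibrate group ate the same high-fat diet for 14 weeks and was given fenofibrate, a fibrate drug that lowers blood lipids through the nuclear receptor PPARalpha, by gavage from week 10 for the last 4 weeks. Each group began with 10 mice and is represented by 4 libraries. The sources used here give no strain, sex, age, dose or vehicle. The labels do not say that the 4 libraries of a group came from separate mice, so each p-value measures the spread between these libraries, which may be technical.

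MHC class I molecules stand on nearly all nucleated cells and show peptides from inside the cell to CD8 T cells. Each is a heavy chain bound to the light chain beta-2-microglobulin, and its peptide is pumped into the endoplasmic reticulum by the TAP transporter and fitted with the help of tapasin. MHC class II molecules are pairs of an alpha and a beta chain on dendritic cells, macrophages and B cells, and they show peptides from engulfed material to CD4 T cells. The invariant chain Cd74 guards the class II groove until H2-DM exchanges its remnant for a peptide. Nlrc5 and Ciita are the transactivators of the class I and class II genes, and interferon gamma induces both. In liver, hepatocytes carry class I, and Kupffer cells, the resident macrophages, are among the cells that carry class II.

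The promoters of the members the results turn on are printed first, because the 2 classes are known by the short elements their activators bind. The RefSeq table of promoters (GRCm38.p6; 250 bases before to 50 after each start) held a window for 24 of the 36 members, 16 of class I and 8 of class II. Stretches are written 5′ to 3′ on the gene's strand, and capitals mark a match to a searched motif. They come from chr2:122147538-122147648 (+) for B2m, chr17:34000349-34000468 (-) for H2-K1, chr17:35262913-35263055 (+) for H2-D1, chr17:35469903-35470022 (+) for H2-Q10, chr17:34287857-34287907 (-) for H2-Aa and chr17:34305763-34305846 (+) for H2-Eb1. In H2-Q10, which held none of the motifs, capitals mark the 11 bases that stand where H2-K1 has enhancer A.
B2m: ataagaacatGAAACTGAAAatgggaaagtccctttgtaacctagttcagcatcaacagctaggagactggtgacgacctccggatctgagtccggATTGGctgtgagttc
H2-K1: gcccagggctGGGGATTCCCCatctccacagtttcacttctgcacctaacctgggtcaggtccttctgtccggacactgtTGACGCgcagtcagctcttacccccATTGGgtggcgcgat
H2-D1: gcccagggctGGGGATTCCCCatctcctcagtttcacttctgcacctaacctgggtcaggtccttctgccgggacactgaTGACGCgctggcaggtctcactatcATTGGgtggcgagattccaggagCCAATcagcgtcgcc
H2-Q10: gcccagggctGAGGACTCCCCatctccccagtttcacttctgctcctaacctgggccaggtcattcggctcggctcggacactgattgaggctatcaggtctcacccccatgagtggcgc
H2-Aa: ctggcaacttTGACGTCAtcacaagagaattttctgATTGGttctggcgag
H2-Eb1: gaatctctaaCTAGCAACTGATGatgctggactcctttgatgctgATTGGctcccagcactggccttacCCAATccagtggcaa

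Both strands of 32851 promoter windows were searched. The first capitals of H2-K1 are the enhancer A motif as searched, which was in H2-K1, H2-D1 and H2-Q6 and in 0.0304% of all windows. At that place H2-Q10 differed from H2-K1 by G2A and T6C, counted from 1 at the first capital of the H2-K1 stretch. The interferon-stimulated response element, the first capitals of B2m with any base at the fifth and the sixth place, was in B2m, H2-T22 and H2-T23, against 3.44% of all windows. TGACGC, the core of site alpha, was in H2-K1, H2-D1, H2-M3 and H2-Q4 and in 7.4% of all windows. The class II X box was searched in a strict form, the first capitals of H2-Eb1 with any base at the ninth place. This form was in only 3 of all windows (0.00913%), and in H2-Eb1 alone of the members with a window. The CRE letters TGACGTCA were in H2-Aa alone of those members and in 1.79% of all windows. The Y box CCAAT was in 14 of 16 class I and 8 of 8 class II windows, but it is short and was in 37.4% of all windows. Over the first 110 bases of their stretches, H2-K1 and H2-D1 were identical at 99 when laid side by side without gaps. A match is a string of letters and not a measured binding site. Only the exact letters were searched, so a promoter without a match may still hold a variant of the element.

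Read counts per gene were analysed. Levels are given as CPM, each gene's counts relative to a common library total, after TMM scaling, which corrects that total for a few very abundant genes, and as CPM per kb of exon where genes are compared with each other. Library totals ran from 15797016 to 18514481 counts, and the members took 0.567% to 0.857% of a library. Of the 36 members, 29 had enough reads to be tested, 20 of class I and 9 of class II. The 7 others (H2-T-ps, H2-M2, H2-Oa, H2-M6-ps, H2-Eb2, H2-M5 and H2-M10.6) had at most 13 reads in any library. Summed hepatocyte markers were between 94141 and 153311 CPM, so liver tissue was present in every library. Fenofibrate library 1 also had 1896 CPM of pancreatic acinar markers, which reached 1.10 CPM at most in any other. Its sum of striated muscle markers was 142 CPM, that of fenofibrate library 3 was 105 CPM, and the remaining 10 had no more than 1.01 CPM. Hepatocyte marker sums were lowest in the same libraries, at 94393 and 94141 CPM. Calls of named genes in comparisons with the fenofibrate group are therefore also checked without these 2 libraries. In that fit the remaining 2 are assumed to vary as the other groups do. In bulk tissue, fewer cells of a type and less RNA per cell cannot be told apart.

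Per length, B2m was the most abundant member, with a mean of 2450 CPM per kb over the 12 libraries. H2-K1 followed with 505 CPM per kb, then H2-Q10 with 361 and H2-D1 with 238. H2-K1 and H2-D1 encode the classical heavy chains, and H2-Q10 encodes a secreted class I molecule known from liver. H2-T23, the Qa-1 heavy chain, stood at 68.8 CPM per kb. Cd74 was the most abundant class II gene at 47.7 CPM per kb, above the class II chains H2-Eb1 (17.005), H2-Ab1 (14.2) and H2-Aa (13.8). Ciita was last of the 29 tested members at 0.135 CPM per kb. B2m, H2-K1, H2-Q10 and H2-D1 together took 85.0% to 89.8% of the members' reads in each library. The neighbours H2-Eb1, Tapbp, H2-Ab1, H2-Aa and H2-Q4 lay between 13.6 and 17.005 CPM per kb, closer together than the spread of H2-Eb1 between Control libraries (SD 11.0 CPM per kb).

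**Figure D1:**
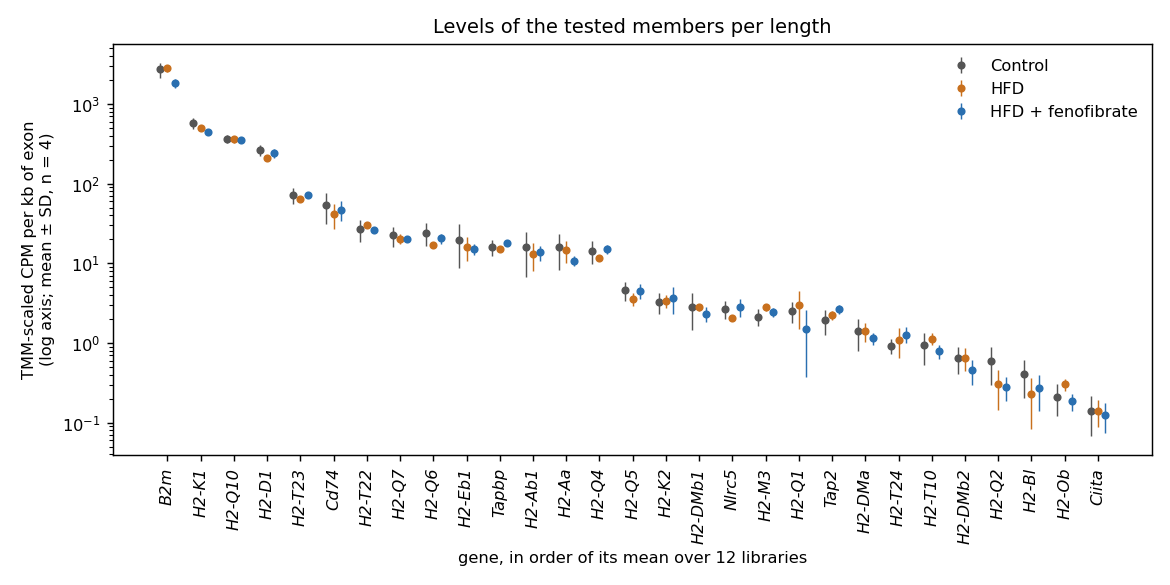
Mean level of each tested member in TMM-scaled CPM per kb of exon (log axis; points are means and lines are SDs of 4 libraries) in the Control, HFD and HFD plus fenofibrate groups. B2m, H2-K1, H2-Q10 and H2-D1 stand highest, and B2m is the abundant gene whose fenofibrate value lies visibly below the other groups.

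Fenofibrate against HFD asks what the drug did in animals on the same diet. B2m, the light chain shared by all class I molecules, was lower with fenofibrate. Its levels were 2732, 2228, 2256 and 2460 CPM in the 4 HFD libraries and 1531, 1838, 1343 and 1534 CPM in the 4 fenofibrate libraries. The highest fenofibrate library was below the lowest HFD library. B2m fell by 0.63 ± 0.15 on the log2 scale (SE; adjusted p = 0.0141 by the quasi-likelihood test of edgeR, with Benjamini-Hochberg adjustment over all 13477 genes tested), to 0.645 of its HFD level. In the authors' deposited table the log2 change of B2m was -0.64 with an adjusted p of 3.17e-06. The authors' deposited table for this comparison also has adjusted p-values under 0.05 for H2-Q4 (0.38, adjusted p = 0.0188) and H2-T22 (-0.23, adjusted p = 0.036). In the edgeR fit, B2m was the only one of the 29 tested members that passed, when 13.5% of all genes tested passed it (6.59% fell and 6.89% rose). A share of 1 in 29 is below that background, so the class as a whole did not stand out by its calls.

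The B2m call was lost without fenofibrate library 3, the lowest of the group, with a change of -0.56 (adjusted p = 0.0563). Calls over all genes then also dropped, from 928 up and 888 down to 282 and 328. Without fenofibrate libraries 1 and 3 the B2m change was -0.52 (adjusted p = 0.199), with 55 genes up and 69 down. The remaining fenofibrate libraries 2 and 4 had 1838 and 1534 CPM of B2m and 0.480 and 0.641 CPM of acinar markers, and both lay below all 4 HFD libraries in B2m. Scaled by library totals without TMM, B2m was still lower, by -0.47 (adjusted p = 0.0186). B2m overlaps Patl2, a gene on the opposite strand, and the sources used here do not say whether counting used the strand. No 50-base stretch of B2m transcripts recurred in another gene.

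Beside B2m, 3 of 6 stellate cell markers fell in the same comparison (Colec11, Lrat and Reln), when 6.59% of all genes did. That list summed to 303 ± 25.0 CPM in HFD and 214 ± 22.8 CPM with fenofibrate (SD, n = 4). The sum of B cell markers was 41.4 ± 8.35 CPM in HFD and 20.1 ± 5.67 CPM with fenofibrate, and most of that difference was Ighm, the immunoglobulin mu chain, which fell by 1.42 ± 0.27 (adjusted p = 0.00476). The other 8 B cell markers summed to 11.97 ± 1.94 and 9.06 ± 3.41 CPM, and 0 of 8 were called, when 13.5% of all genes were. Without fenofibrate libraries 1 and 3, Ighm gave -1.37 (adjusted p = 0.0709), Colec11 -0.63 (0.148), Lrat -0.57 (0.313) and Reln -0.32 (0.265). The hepatocyte marker sum was 122902 ± 12454 CPM in HFD and 104904 ± 14887 CPM with fenofibrate. The cholangiocyte marker sum was 59.4 ± 21.6 CPM in HFD and 35.5 ± 11.9 CPM with fenofibrate. For Kupffer cell markers the sums were 352 ± 107 and 304 ± 56.9 CPM, and 6 of 8 were below 0. Of 8 hepatocyte markers 2 fell and 1 rose, and of 8 sinusoidal endothelial markers 1 fell. Called were 0 of 5 cholangiocyte and 0 of 8 Kupffer cell markers. Of all genes 6.59% fell and 6.89% rose. The part of these cells in the B2m change was not tested.

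The diet alone gave no B2m difference beyond the spread between libraries. Control libraries 1 to 4 had 1736, 2387, 2952 and 2292 CPM. The range of the Control group enclosed that of the HFD group, and the HFD difference was 0.047 ± 0.15 (adjusted p = 0.878). Against Control, B2m fell with fenofibrate by 0.58 ± 0.15 (adjusted p = 0.022), to 0.667 of the Control level. Here the groups overlapped, since Control library 1 (1736 CPM) was below fenofibrate library 2 (1838 CPM). Leaving out a library ended this call for Control library 2 (-0.58, adjusted p = 0.0521), Control library 3 (-0.45, 0.0654), fenofibrate library 1 (-0.56, 0.0642), fenofibrate library 3 (-0.51, 0.0803) or fenofibrate library 4 (-0.57, 0.0557), and without fenofibrate libraries 1 and 3 (-0.46, 0.235). The comparisons with HFD and with Control use the same 4 fenofibrate libraries. B2m was again the only member called, when 9.17% of all genes passed the test against Control (4.31% fell and 4.86% rose).

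**Figure D2:**
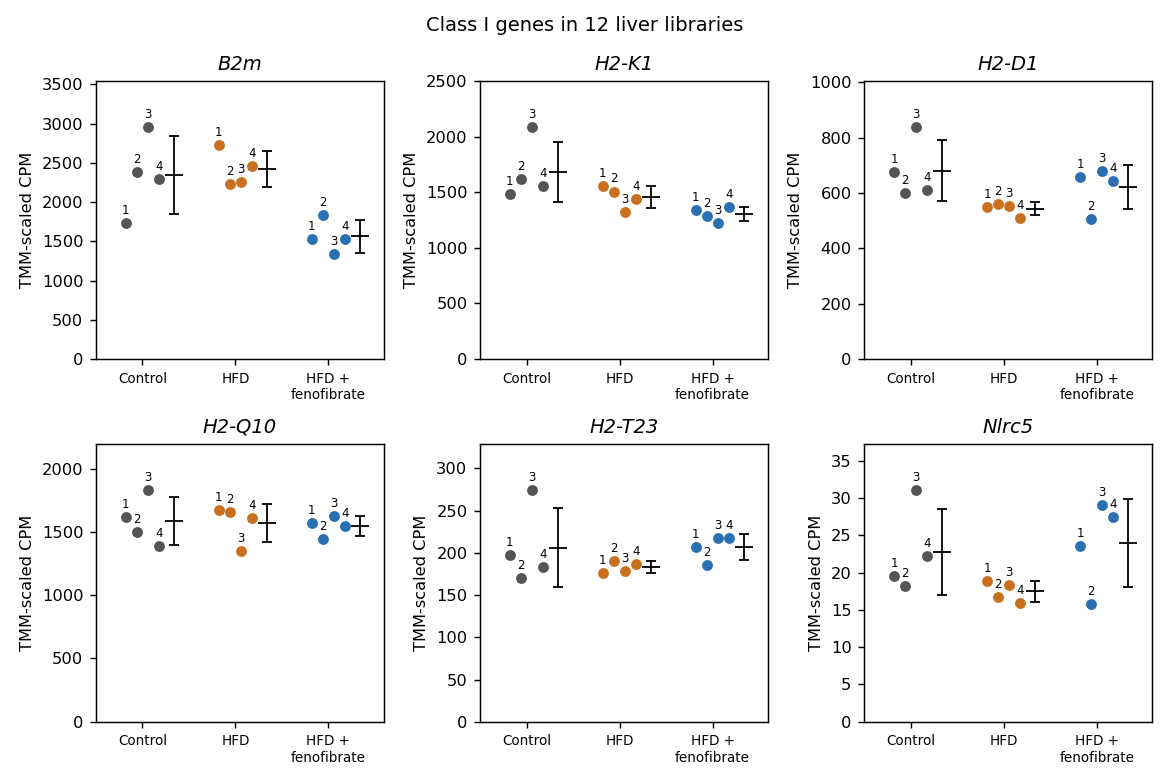
TMM-scaled CPM of B2m, H2-K1, H2-D1, H2-Q10, H2-T23 and Nlrc5 in each library (points, numbered by replicate), with the mean and SD of 4 libraries beside each group. The fenofibrate points of B2m, 1343 to 1838 CPM, lie below the HFD points, 2228 to 2732 CPM, while the groups of the other 5 genes overlap in that comparison.

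The classical heavy chains did not follow B2m past the test. H2-K1 had 1483, 1620, 2086 and 1557 CPM in Control, 1556, 1508, 1324 and 1444 CPM in HFD, and 1337, 1288, 1228 and 1371 CPM with fenofibrate. Every fenofibrate library was below every Control library, but the difference, -0.37 ± 0.11, missed the threshold (adjusted p = 0.0568). H2-K1 passed by DESeq2 (-0.36, adjusted p = 0.0151) and without Control library 1 (-0.41, adjusted p = 0.0335). Against HFD, H2-K1 differed by -0.16 ± 0.11 (adjusted p = 0.363). H2-D1 had 674, 599, 837 and 610.3 CPM in Control, 550.4, 560.4, 554 and 509.6 CPM in HFD, and 656, 507.3, 680.4 and 642 CPM with fenofibrate. All 4 HFD libraries of H2-D1 were below all 4 Control libraries, with a difference of -0.32 ± 0.12 (adjusted p = 0.0981). With fenofibrate against HFD, H2-D1 differed by 0.19 ± 0.12 (adjusted p = 0.296), in the opposite direction to B2m.

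H2-Q10 had nearly the same mean in the 3 groups. Its values were 1622, 1504, 1832 and 1390.2 CPM in Control, 1672, 1658, 1349 and 1611 CPM in HFD, and 1572, 1444, 1628 and 1550.2 CPM with fenofibrate. All 3 differences of H2-Q10 lay between -0.035 and -0.013, with SEs of 0.11, and all groups overlapped. H2-T23 had 197, 170.03, 274 and 183 CPM in Control, 176, 191, 179 and 187 CPM in HFD, and 207, 186, 218 and 217 CPM with fenofibrate, and its largest difference was 0.18 ± 0.13 (fenofibrate against HFD, adjusted p = 0.366). Transcripts of the heavy chains share sequence, which can move reads between them: 9.63% of 50-base stretches of H2-K1, 12.8% of H2-D1 and 19.0% of H2-Q10 recurred in other genes.

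Set against B2m within a library, the 4 most abundant heavy chains had more reads with fenofibrate than with HFD alone. These ratios of read counts do not depend on how libraries are scaled. The H2-K1 to B2m ratio was 0.605 ± 0.0486 in HFD and 0.846 ± 0.0981 with fenofibrate (SD, n = 4), and the lowest fenofibrate library (0.701) was above the highest HFD library (0.677). For H2-D1 the ratio was 0.226 ± 0.0257 in HFD and 0.407 ± 0.0961 with fenofibrate. For H2-Q10 it was 0.652 ± 0.0659 and 1.01 ± 0.175, and for H2-T23 it was 0.0763 ± 0.00888 and 0.135 ± 0.0255. None of these 4 ratios overlapped between HFD and fenofibrate libraries, and all 4 overlapped between fenofibrate and Control. The H2-T22 to B2m ratio, at 0.0428 ± 0.00366 in HFD and 0.0575 ± 0.00888 with fenofibrate, did overlap, and H2-Q1 differed by more than B2m in the same direction (-1.02, adjusted p = 0.131). In Control the ratio to B2m was 0.73 ± 0.0841 for H2-K1 and 0.297 ± 0.0622 for H2-D1, and Control library 1 had the highest value of both. The ratios share B2m as divisor, were chosen after the B2m values were seen, and carry no test. B2m itself did not overlap between HFD and fenofibrate, so a gene that stayed level can separate in its ratio to B2m. H2-Q10, which differed by -0.022 ± 0.11 in this comparison, was such a gene. The share of all genes whose ratio to B2m does not overlap was not computed, so the ratios add no separate result on the heavy chains.

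**Figure D3:**
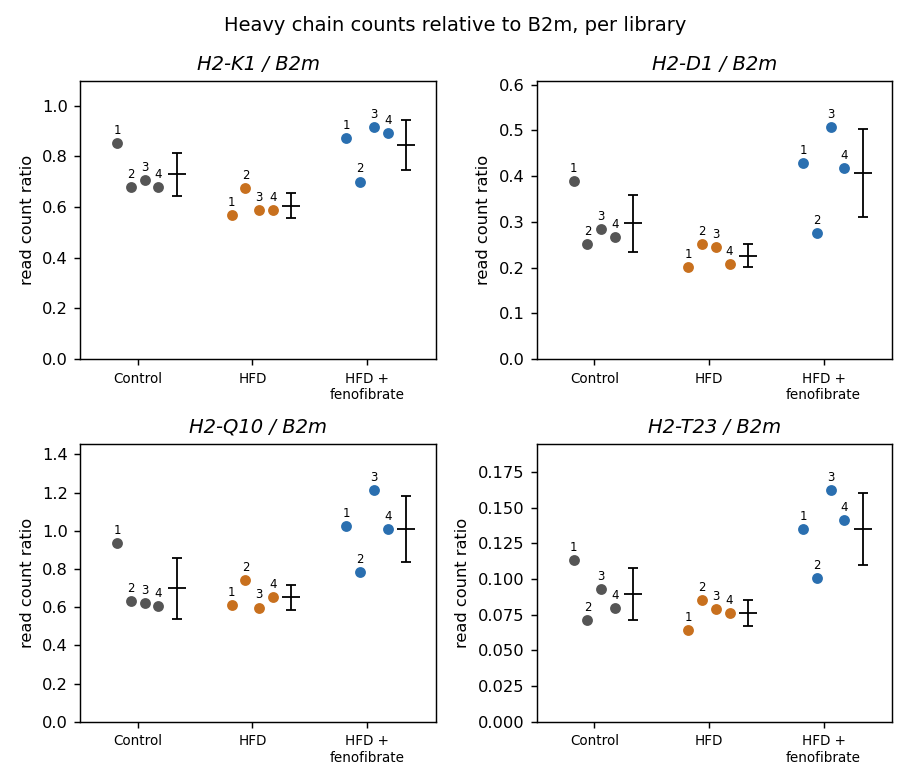
Read count of H2-K1, H2-D1, H2-Q10 and H2-T23 divided by the read count of B2m in each library (points, numbered by replicate), with the mean and SD of 4 libraries beside each group. In all 4 panels the fenofibrate points lie above the HFD points, with fenofibrate library 2 nearest to them.

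Peptide supply genes of class I showed no call among the members. Tap2, a subunit of the TAP peptide transporter, had 9.96, 4.15, 8.71 and 6.28 CPM in Control, 8.84, 9.84, 8.16 and 7.13 CPM in HFD, and 11.6, 8.34, 10.1 and 9.81 CPM with fenofibrate. Its fenofibrate mean was above that of Control, 0.45 ± 0.21 on the log2 scale (adjusted p = 0.199), with overlapping groups. Tapbp, which encodes tapasin, had 59.0, 48.6, 77.2 and 47.5 CPM in Control, 52.2, 55.2, 57.8 and 55.2 CPM in HFD, and 71.2, 56.3, 68.2 and 66.9 CPM with fenofibrate. The Tapbp difference between fenofibrate and HFD was 0.25 ± 0.13 (adjusted p = 0.214). Of 13 genes of class I peptide supply and loading, Tap2 and Tapbp included, 0 changed with HFD, 1 fell with fenofibrate against HFD (6.59% of all genes did) and 0 changed with fenofibrate against Control, with medians of 0.18, 0.047 and 0.18 beside -0.017, 0.011 and -0.013 over all genes. The 1 gene was Canx, which encodes calnexin, a chaperone that holds newly made heavy chains. Canx had 285, 333, 283 and 266 CPM in HFD and 192, 227, 190.3 and 203 CPM with fenofibrate, without overlap. Canx fell by 0.52 ± 0.10 (adjusted p = 0.00489), and the call was lost without fenofibrate libraries 1 and 3 (-0.43, adjusted p = 0.13). Calr and Pdia3, the other chaperones of the loading complex and the most abundant uncalled genes of that list, differed by 0.075 ± 0.15 (adjusted p = 0.773) and -0.22 ± 0.14 (adjusted p = 0.297) in the same comparison.

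Nlrc5, the class I transactivator, had 19.6, 18.2, 31.1 and 22.3 CPM in Control, 18.9, 16.7, 18.4 and 16.0 CPM in HFD, and 23.6, 15.8, 29.1 and 27.4 CPM with fenofibrate. Fenofibrate library 2 was below every HFD library and the other 3 fenofibrate libraries were above them all. The difference was 0.46 ± 0.18 (adjusted p = 0.0996), opposite in sign to that of B2m. Without fenofibrate library 2 it was 0.61 (adjusted p = 0.0186), and scaled by library totals without TMM it was 0.64 (adjusted p = 0.0441). HFD against Control gave -0.38 ± 0.18 (adjusted p = 0.197), and fenofibrate against Control 0.078 ± 0.18 (adjusted p = 0.835).

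Among the remaining class I members, 0 passed the test in any of the 3 comparisons. HFD against Control spanned -0.97 (H2-Q2) to 0.39 (H2-M3, which presents formylated peptides) over the 20 tested class I genes, with a median of -0.11 beside -0.017 over all genes, and 12 of 20 were negative. In this comparison 0 of 20 were called by edgeR and by DESeq2, when 12.8% of all genes were called (6.13% rose and 6.64% fell). An unadjusted p under 0.05 was found for 3 of 20, and for 26.9% of all genes. H2-Q6, a Qa region heavy chain, came nearest, with -0.49 ± 0.17 (adjusted p = 0.0705), and it passed without Control library 2 (-0.60, adjusted p = 0.0359) or Control library 4 (-0.60, adjusted p = 0.0343). H2-T22 passed without Control library 3 (0.39, adjusted p = 0.0382). Both share a large part of their sequence with relatives, 651 of 2036 distinct 50-base stretches for H2-Q6 and 1241 of 3597 for H2-T22, so that their own values are uncertain.

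With fenofibrate against HFD, the class I median was 0.15 beside 0.011 over all genes, and 12 of 20 were positive. The values ran from -1.02 ± 0.45 (H2-Q1, adjusted p = 0.131) to 0.46 (Nlrc5). H2-Q1 was uneven within groups, with 3.38 to 13.0 CPM in HFD and 1.75 to 8.67 CPM with fenofibrate, and without fenofibrate library 4 its difference was -1.66 (adjusted p = 0.0246). H2-Q4 gave 0.39 ± 0.17 (adjusted p = 0.127) and passed without Control library 3, which enters through the shared estimate of spread (0.39, adjusted p = 0.0312), and with the 8 libraries compared alone (0.39, adjusted p = 0.0303). B2m, H2-T10 and H2-T22 were the 3 of 20 class I genes whose groups did not overlap, and all 3 were lower with fenofibrate, when 20.7% of all genes had no overlap. H2-T10 and H2-T22, closely related genes known as ligands of gamma delta T cells, gave -0.50 ± 0.25 (adjusted p = 0.191) and -0.22 ± 0.15 (adjusted p = 0.347). The annotation lists H2-T10 as a polymorphic pseudogene. Against Control the class I median was -0.043 beside -0.013, and 2 of 20 did not overlap (H2-K1 and H2-Q2), when 13.1% of all genes did not. In HFD against Control 1 of 20, H2-D1, did not overlap, when 17.6% of all genes did not.

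The scaling bears on these class I signs. Library totals without TMM moved the median of all genes from 0.011 to 0.18 in fenofibrate against HFD. The median of the class I genes without B2m moved from 0.18 to 0.35, and the number above 0 from 12 to 15 of 19. The class I median thus moved as far as that of all genes, and the signs of single genes near 0 turned: H2-K1 was at 0.011 and H2-Q10 at 0.15 in that comparison, and H2-D1 was at 0.087 and H2-Q10 at 0.18 against Control.

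**Figure D4:**
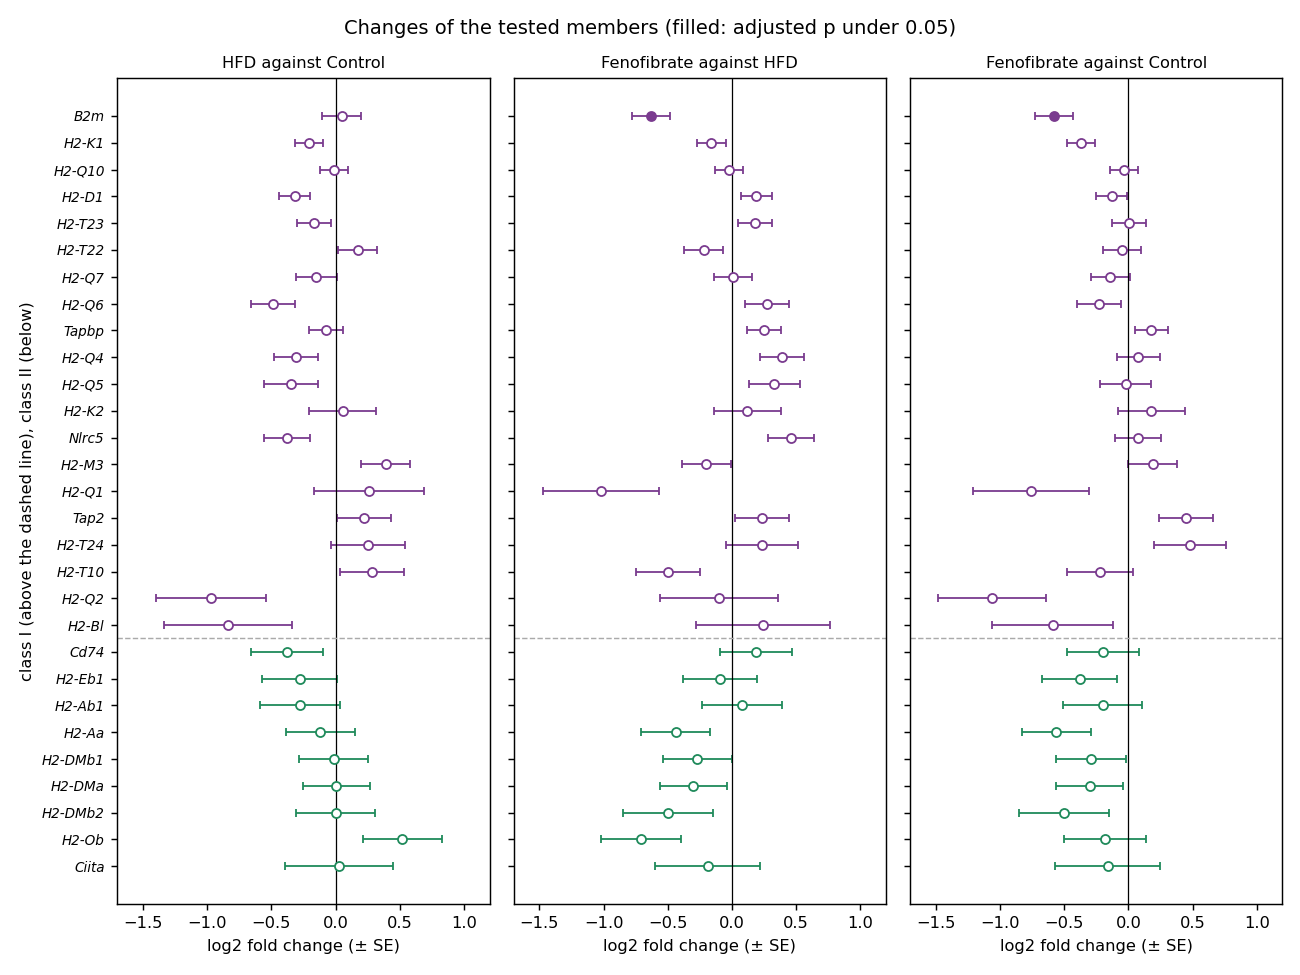
Log2 fold change (points) with its SE (lines) of the 20 class I and 9 class II members tested, in the 3 comparisons; filled points passed an adjusted p of 0.05. B2m is filled in both comparisons of fenofibrate, and no other point is filled.

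Proteins outside the H2 locus also use or resemble the class I fold, and those of Fcgrt, Hfe, Cd1d1 and Mr1 pair with B2m. Of 6 such genes, 1 rose with HFD (Fcgrt; 6.13% of all genes did), 2 fell with fenofibrate against HFD (Fcgrt and Hfe; 6.59% of all genes did) and 1 fell with fenofibrate against Control (Hfe; 4.31% of all genes did), with medians of -0.033, -0.22 and -0.16. Fcgrt, the neonatal Fc receptor that spares IgG and albumin from breakdown, had 188, 261, 211 and 218 CPM in Control, 291, 282, 249.6 and 313 CPM in HFD, and 196, 223, 185 and 210.2 CPM with fenofibrate. Its HFD libraries were above all fenofibrate libraries. Fcgrt fell with fenofibrate by 0.48 ± 0.11 (adjusted p = 0.0138), and had risen with HFD by 0.37 ± 0.11 (adjusted p = 0.0406). Hfe, a regulator of iron uptake, had 57.6, 69.8, 56.6 and 62.7 CPM in Control, 55.9, 49.5, 51.3 and 57.6 CPM in HFD, and 40.9, 47.03, 40.8 and 36.6 CPM with fenofibrate. Its fenofibrate libraries were the lowest of all 12. Hfe fell by 0.38 ± 0.10 against HFD (adjusted p = 0.0254) and by 0.58 ± 0.10 against Control (adjusted p = 0.00239). Cd1d1, which presents lipids, and Mr1, which presents vitamin B metabolites, differed by -0.017 ± 0.095 (adjusted p = 0.924) and -0.10 ± 0.19 (adjusted p = 0.77) with fenofibrate against HFD.

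The Hfe call against Control held under all 21 alternatives, and the other 3 calls of this list were less firm. Fcgrt against HFD was lost without fenofibrate library 3 (adjusted p = 0.0519) and without fenofibrate libraries 1 and 3 (-0.38, adjusted p = 0.208). Fcgrt with HFD was lost without Control library 1 (0.0878), 3 (0.0893) or 4 (0.0796) or HFD library 1 (0.0853), 2 (0.0829) or 4 (0.123), with no filter on low counts (0.0582) and with the 8 libraries compared alone (0.0534), these being adjusted p-values. Hfe against HFD was lost without fenofibrate library 1 (0.0636), 3 (0.0695) or 4 (0.065) or HFD library 1 (0.068) or 4 (0.0776), without fenofibrate libraries 1 and 3 (-0.35, adjusted p = 0.229) and with library totals without TMM (-0.21, adjusted p = 0.105).

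No class II member passed the test in any comparison. By an unadjusted p under 0.05, 0 of 9 stood out with HFD, 1 of 9 with fenofibrate against HFD (H2-Ob, which dampens H2-DM) and 0 of 9 with fenofibrate against Control, where 26.9%, 31.2% and 24.6% of all genes did. DESeq2 called 0 class II members in all 3. The medians were -0.016, -0.27 and -0.29, beside -0.017, 0.011 and -0.013 over all genes. The numbers of genes above 0 were 3, 2 and 0 of 9, and with library totals without TMM they were 5, 3 and 4 of 9, with medians of 0.029, -0.10 and -0.064 beside 0.029, 0.18 and 0.20 over all genes.

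The class II chains varied widely between libraries in Control and HFD, and less with fenofibrate. For H2-Aa the means were 60.5 ± 29.1, 55.5 ± 16.9 and 41.0 ± 5.38 CPM in Control, HFD and fenofibrate (SD, n = 4). H2-Aa, the alpha chain of I-A, had 31.3, 52.7, 100.6 and 57.5 CPM in Control, 49.6, 80.5, 43.9 and 48.0 CPM in HFD, and 44.1, 32.9, 43.8 and 43.0 CPM with fenofibrate. H2-Ab1, its beta chain, had 27.4, 26.3, 75.4 and 33.2 CPM in Control, 27.9, 52.9, 26.0 and 26.8 CPM in HFD, and 37.3, 24.1, 38.8 and 40.8 CPM with fenofibrate. H2-Eb1, the beta chain of I-E, had 22.3, 27.4, 69.6 and 33.8 CPM in Control, 27.7, 47.1, 24.6 and 26.3 CPM in HFD, and 30.2, 22.7, 34.5 and 30.4 CPM with fenofibrate. The 3 chains shared the same high libraries, Control library 3 and HFD library 2, and the same low fenofibrate library, library 2. With fenofibrate against HFD, H2-Aa differed by -0.44 ± 0.27 (adjusted p = 0.281), H2-Ab1 by 0.077 ± 0.31 (0.892) and H2-Eb1 by -0.093 ± 0.29 (0.86). Against Control, H2-Aa differed by -0.56 ± 0.27 (adjusted p = 0.209), and without Control library 1, its lowest Control library, by -0.76 (adjusted p = 0.0432).

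The count ratio of the I-A chains differed between HFD and fenofibrate libraries. H2-Aa counts divided by H2-Ab1 counts gave 1.69 ± 0.122 in HFD and 1.18 ± 0.132 with fenofibrate (SD, n = 4). The highest fenofibrate library (1.37) was below the lowest HFD library (1.52). Control libraries spread from 1.14 to 2.005 and overlapped both. This ratio was picked after its values were seen and carries no test. H2-Aa shared 0.488% and H2-Ab1 0% of their 50-base stretches with other genes.

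**Figure D5:**
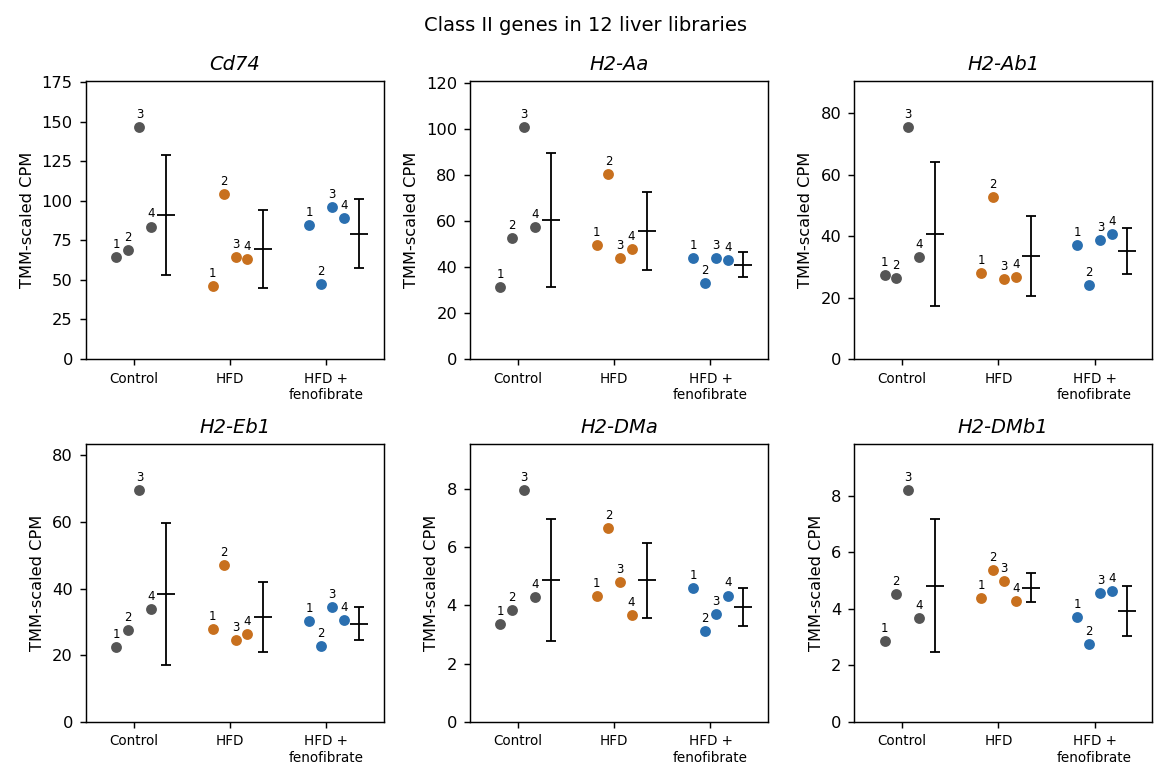
TMM-scaled CPM of Cd74, H2-Aa, H2-Ab1, H2-Eb1, H2-DMa and H2-DMb1 in each library (points, numbered by replicate), with the mean and SD of 4 libraries beside each group. Control library 3 is the highest point of its group in all 6 panels, HFD library 2 of its group, and fenofibrate library 2 is the lowest of its group.

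Cd74, the invariant chain, had 64.8, 68.7, 146 and 83.8 CPM in Control, 46.3, 104.6, 64.6 and 63.5 CPM in HFD, and 84.8, 47.3, 96.4 and 88.9 CPM with fenofibrate. Its 3 differences were -0.38 ± 0.28 with HFD (adjusted p = 0.42), 0.19 ± 0.28 with fenofibrate against HFD (0.684) and -0.20 ± 0.28 against Control (0.711). H2-DMa, a chain of the peptide exchanger, had 3.36, 3.83, 7.96 and 4.29 CPM in Control, 4.32, 6.66, 4.79 and 3.66 CPM in HFD, and 4.60, 3.12, 3.70 and 4.34 CPM with fenofibrate. H2-DMb1, which pairs with it, had 2.85, 4.54, 8.21 and 3.67 CPM in Control, 4.39, 5.36, 4.97 and 4.28 CPM in HFD, and 3.71, 2.76, 4.57 and 4.63 CPM with fenofibrate. With fenofibrate against HFD they differed by -0.30 ± 0.26 (adjusted p = 0.455) and -0.27 ± 0.27 (adjusted p = 0.52), and the library pattern was that of the chains. H2-DMb1 shares 22.7% of its 50-base stretches with H2-DMb2, so the reads of that pair cannot be assigned with certainty. H2-Ob was lower with fenofibrate than with HFD without overlap, -0.71 ± 0.31 (adjusted p = 0.129), at 0.72 to 1.28 CPM against 1.47 to 2.06 CPM. Ciita, the class II transactivator, had 9 to 35 reads per library, and its differences of -0.19 to 0.026 had SEs of 0.41 to 0.42 and were smaller than those.

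The class II genes were high together or low together by library. Control library 3 was the highest of its group for 9 of 9 tested class II members and 18 of 20 class I members, against 22.8% of all genes tested. HFD library 2 was the highest for 8 of 9 class II members, against 22.4% of all genes, but for 6 of 20 class I members. Fenofibrate library 2 was the lowest for 8 of 9 class II and 15 of 20 class I members, against 31.1% of all genes. Class II members summed to 155, 187, 415 and 219.6 CPM in Control, 165, 303, 173 and 176 CPM in HFD, and 209, 135, 225 and 215 CPM with fenofibrate.

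Control library 3 set the direction of the class II comparisons with Control. Without it, 8 of 9 class II genes were above 0 in HFD against Control (median 0.24), where 3 of 9 were with it. In fenofibrate against Control 7 of 9 were then above 0 (median 0.095), where 0 of 9 were with it. The class I genes without B2m turned too, with a median of 0.17 and 13 of 19 above 0 in fenofibrate against Control, against -0.035 and 8 of 19 with all libraries. B2m stayed below 0 in the same comparison (-0.45, adjusted p = 0.0654). None of these class II differences passed the test with or without this library.

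Sums of immune cell markers followed these libraries in part. The sum of T and NK cell markers was 14.7 CPM in Control library 3 and between 4.60 and 8.37 CPM in all others. HFD library 2 (7.77 CPM) was below HFD library 1 (8.37 CPM) in this sum, and fenofibrate library 2 (5.82 CPM) was above fenofibrate library 4 (5.37 CPM). For B cell markers the sum was 34.4 CPM in Control library 3, where the rest of Control had 17.9 to 20.9 CPM. HFD library 2 had 45.6 CPM among HFD values of 33.3 to 51.0 CPM. With fenofibrate the lowest B cell sum was in library 3 (14.7 CPM), and library 2 had 18.6 CPM. Dendritic cell markers were highest of their groups in Control library 3 (16.7 CPM) and HFD library 2 (15.4 CPM), within a whole range of 13.0 to 16.7 CPM. Their lowest fenofibrate value was in library 2 (13.3 CPM). Monocyte markers followed the same order, with 4.54 CPM in Control library 3, 5.12 CPM in HFD library 2 and 2.76 CPM in fenofibrate library 2. Kupffer cell markers were at 228 CPM in fenofibrate library 2, the lowest of its group, but at 332 CPM in Control library 3, inside the Control range of 256 to 359 CPM. All 9 dendritic cell, 9 B cell and 8 Kupffer cell markers had reads. The part of these cells in the class II levels was not tested.

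Among 15 genes that supply class II peptides or control class II genes, 3 changed with HFD. With HFD 2 rose and 1 fell (6.13% and 6.64% of all genes did), with fenofibrate against HFD 1 fell (6.59% of all genes did), and with fenofibrate against Control 1 rose (4.86% of all genes did), with medians of 0.019, -0.11 and -0.13. Ctsl, the protease cathepsin L, had 858, 1271, 949.7 and 1015 CPM in Control and 679, 479.9, 479.04 and 601 CPM in HFD, without overlap. Ctsl fell by 0.87 ± 0.16 (adjusted p = 0.00235). Nfyb, a subunit of the NF-Y complex that binds CCAAT, rose with HFD by 0.55 ± 0.10 (adjusted p = 0.00191), from 18.4 ± 2.01 to 26.9 ± 1.62 CPM. March8, a ubiquitin ligase that takes class II and other membrane proteins off the surface, had 76.4, 93.4, 75.4 and 85.3 CPM in Control, 128, 125, 112 and 113 CPM in HFD, and 77.2, 80.3, 73.3 and 104 CPM with fenofibrate. March8 rose with HFD by 0.53 ± 0.12 (adjusted p = 0.00737) and fell with fenofibrate against HFD by 0.51 ± 0.12 (adjusted p = 0.0119). The 3 HFD calls held under all 21 alternatives, and that of March8 with fenofibrate was lost without fenofibrate library 3 (adjusted p = 0.0516) and without fenofibrate libraries 1 and 3 (-0.37, adjusted p = 0.218). Nfyb against Control (0.36 ± 0.10, adjusted p = 0.0325) was lost in 8 of 21 alternatives. No filter (0.0648) or the 8 libraries compared alone (0.0675) ended it, and leaving out Control library 2 (0.0973) or 4 (0.0574) or fenofibrate library 1 (0.0918), 3 (0.0578) or 4 (0.0769) was enough, as was leaving out fenofibrate libraries 1 and 3 (0.187), all adjusted p-values.

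Interferon gamma is the chief inducer of both classes. Of 11 receptor and signal genes, 0 changed with HFD (12.8% of all genes did), 1 rose and 1 fell with fenofibrate against HFD (6.89% and 6.59% of all genes did), and 1 rose with fenofibrate against Control (4.86% of all genes did), with medians of 0.038, -0.02 and -0.03. Irf2, a repressor and activator at interferon response elements, had 34.01, 20.2, 32.2 and 25.0 CPM in Control, 24.4, 38.3, 36.4 and 27.3 CPM in HFD, and 44.9, 40.6, 53.04 and 49.5 CPM with fenofibrate. All fenofibrate libraries of Irf2 were above all others. Irf2 rose by 0.57 ± 0.17 against HFD (adjusted p = 0.0362) and by 0.75 ± 0.17 against Control (adjusted p = 0.0115). Jak2, a kinase of the receptor, fell against HFD by 0.41 ± 0.11 (adjusted p = 0.029), from 19.5 ± 1.43 to 14.6 ± 1.70 CPM. Without fenofibrate libraries 1 and 3, Irf2 gave 0.51 (adjusted p = 0.268) and 0.70 (0.108), and Jak2 gave -0.46 (0.143). Irf2 against HFD was also lost without fenofibrate library 1 (0.0684), 3 (0.119) or 4 (0.0808) or HFD library 1 (0.105) or 4 (0.103). Jak2 was lost without fenofibrate library 3 (0.102) or 4 (0.0564) or HFD library 1 (0.0846) or 4 (0.0699), and with library totals without TMM (-0.24, adjusted p = 0.187).

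Of 12 GTPases and chemokines that interferon gamma induces, 1 rose with HFD (6.13% of all genes did), 1 fell with fenofibrate against HFD (6.59% did) and 0 changed against Control (9.17% did). The medians were 0.29, -0.36 and 0.043, beside -0.017, 0.011 and -0.013 over all genes. With HFD 11 of 12 were above 0, and with fenofibrate against HFD 11 of 12 were below 0. An unadjusted p under 0.05 was found for 2 of 12 in each, and for 26.9% and 31.2% of all genes. The called gene was Iigp1, an immunity-related GTPase, both times. Iigp1 had 154, 191, 334 and 214 CPM in Control, 448, 487, 417 and 368 CPM in HFD, and 258, 193, 225 and 264 CPM with fenofibrate. Its HFD libraries were above all others. Iigp1 rose with HFD by 0.95 ± 0.19 (adjusted p = 0.00407) and fell with fenofibrate by 0.87 ± 0.19 (adjusted p = 0.00915). The second of these calls was lost without fenofibrate libraries 1 and 3 (-0.91, adjusted p = 0.113). The class I members with a match to the searched letters of the interferon-stimulated response element were B2m, H2-T22 and H2-T23. In fenofibrate against HFD they gave -0.63 ± 0.15, -0.22 ± 0.15 and 0.18 ± 0.13, and B2m alone of them was called. The adjusted p was 0.347 for H2-T22 and 0.366 for H2-T23. The part of the element in these values was not tested.

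Of 6 costimulation genes 5 were tested. With fenofibrate against HFD 1 of 5 fell (6.59% of all genes did). This was Cd86, a ligand on antigen-presenting cells that T cells need beside the MHC. Cd86 fell by 0.68 ± 0.20 (adjusted p = 0.0387), from 4.97 ± 0.678 to 3.09 ± 0.646 CPM. With HFD 0 of 5 changed (12.8% of all genes did), and with fenofibrate against Control 0 of 5 (9.17% did). The Cd86 call was lost in 11 of 21 alternatives, among them each single HFD library (1 to 4: adjusted p = 0.0532, 0.102, 0.0658 and 0.0789), each single fenofibrate library (1 to 4: 0.0987, 0.0714, 0.0551 and 0.0607) and Control library 4 (0.0502) left out. Without fenofibrate libraries 1 and 3 Cd86 gave -0.81 (adjusted p = 0.167), and with library totals without TMM -0.51 (0.113). Icam1 and Cd274, the most abundant uncalled genes of that list, differed by 0.40 ± 0.20 (adjusted p = 0.176) and 0.15 ± 0.27 (adjusted p = 0.744).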

How the data were processed

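Liver RNA was sequenced in 3 groups of 4 libraries. Per the submitters' processing notes the tools were HISAT2 2.0.5, StringTie 1.3.2d and HTSeq 0.6.0; the sources used here give no settings, strand or annotation release. The authors deposited raw read counts per gene in 2 tables, joined here by gene identifier, with absent genes as 0; the HFD counts, present in both, differed in 0 cells. The deposited tables also give log2 fold changes and adjusted p-values (p-value columns), per the file headers, whose test the headers do not name.

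Counts were fitted in R 4.3.3 with edgeR 4.0.16 (quasi-likelihood test, filterByExpr, TMM, prior count 0.125, group as the only term, all 12 libraries, Benjamini-Hochberg over 13477 genes, called at 0.05). The residual degrees of freedom were 9. Alternatives were DESeq2 1.42.0, limma-voom (limma 3.58.1), other scalings and filters, 8 libraries, a replicate block, leaving out each library, and leaving out fenofibrate libraries 1 and 3. The procedure was tested on simulated data. Exon lengths for CPM per kb came from GENCODE M21 (GRCm38), where 24 of 36 members had the positions of the deposited tables; promoters came from RefSeq. Replicate libraries differed by 13.9 to 38.5 chi-square units per gene, so none was counted as a repeat. Same-numbered libraries correlated between -0.175 and 0.139, so no shared pattern by number was seen and the numbers were not used as pairs. Low correlations cannot exclude a pairing.

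Named were members past the low count filter, with values in every library for called members, the most abundant heavy chains and the main presentation genes; from each of 6 pathway lists, up to 4 called genes or the 2 most abundant. Members and lists were chosen with earlier results of these data known. With 4 libraries a group and a biological coefficient of variation of 0.155, small changes can be missed.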

Additional observations from a re-analysis of the deposited data

Results flagged for a closer look

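In 11 of 87 groups of 4 libraries of the tested members, a single library stood far from the other 3 (Dixon's criterion). Chance gives about 1 in 20 for independent values that follow a normal distribution. The 87 groups share the same 12 libraries and many of their genes move together, so the 2 shares cannot be compared as a test. Control library 3 stood high in H2-Ab1 (75.4 CPM, nearest other 33.2), in H2-Q2 (2.24 CPM, nearest 1.06) and in H2-Q4 (54.6 CPM, nearest 32.4). HFD library 2 stood high in H2-Aa (80.5 CPM, nearest 49.6), in H2-Ab1 (52.9 CPM, nearest 27.9), in H2-Eb1 (47.1 CPM, nearest 27.7) and in H2-Ob (2.06 CPM, nearest 1.49). HFD library 1 stood high in 2 Qa heavy chain genes that share sequence, H2-Q6 (38.7 CPM, nearest 35.05) and H2-Q7 (104 CPM, nearest 81.1). Fenofibrate library 2 stood low in H2-Aa (32.9 CPM, nearest 43.0) and in H2-T24 (1.86 CPM, nearest 3.01). The class II members of this kind came from the libraries with the highest or lowest class II sums of their groups.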

How the results depend on the processing

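Across 22 alternatives, 0 called values reversed; for the 15 members given in every library, 61 of 990 values changed sign without being called, 5 calls were gained and 10 lost. Over all members but B2m, 13 calls were gained, among them 3 of H2-Q6, 2 of H2-Q4, 1 of H2-T22 and 1 of H2-Q1. The B2m values, with each library left out, were -0.72 to -0.56 against HFD and -0.69 to -0.45 against Control; with the replicate block they were -0.64 (adjusted p = 0.0272) and -0.58 (0.0466), and the block changed no other member's call. At an adjusted p of 0.01, genes that rose and fell numbered 343 and 360 with HFD, 200 and 262 with fenofibrate against HFD, and 235 and 219 against Control, with 0 class I members. Without fenofibrate libraries 1 and 3 they numbered 55 and 69 against HFD and 215 and 158 against Control, with 0 class I members. With library totals in place of TMM, chosen after seeing the data, 523 fell with HFD, 2059 rose and 451 fell against HFD, with 1 class I member up (Nlrc5), and 2119 rose and 298 fell against Control. Without a filter, 1 class I member fell with HFD (H2-Q6) and 1 class II member fell against HFD (H2-Eb2, at most 6 reads per library). The 8 libraries alone gave 1 class I member up against HFD (H2-Q4), and DESeq2 gave 2 class I members down against Control (B2m and H2-K1). Leaving out single libraries gave 550 to 832 genes up and 554 to 930 down with HFD, 282 to 1210 and 328 to 1206 against HFD, and 383 to 858 and 310 to 852 against Control. Class I members then numbered 0 to 1 up and 0 to 1 down with HFD, 0 to 1 up and 0 to 2 down against HFD, and 0 up and 0 to 2 down against Control; class II members numbered 0 to 1 down against Control. The causes were not tested. The 7 untested members had too few reads for the filter.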
